A study of Mus musculus with 10 samples.

Results

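Amino-acid transporter genes were examined in sorted luminal and basal cells of the mouse mammary gland. The members were taken by gene symbol alone, as every gene of the solute carrier families SLC1, SLC3, SLC6, SLC7, SLC36, SLC38 and SLC43 in the table of read counts, which gave 63 of 24594 genes (7 of SLC1, 2 of SLC3, 21 of SLC6, 15 of SLC7, 4 of SLC36, 11 of SLC38 and 3 of SLC43). The rule itself uses no measured value. All libraries came from wild type C57BL/6J mice with no transgene and no treatment. The study's methods state an adult age range for its animals, and their reproductive stage is not given in the sources used here. Mammary tissue was dissociated with collagenase and hyaluronidase followed by trypsin and dispase, and cells were sorted by fluorescence on the surface proteins EpCAM and CD49f into luminal cells (the layer that lines the lumen) and basal cells (the outer, contractile layer). The data hold 5 luminal and 5 basal libraries. Groups follow the cell type label, which the source name and the library description bear out, whereas the title of each of the 10 samples gives the other cell type. Each sort holds a whole layer, so progenitor and mature luminal cells are pooled, and in such bulk samples fewer cells of a type and less RNA per cell cannot be told apart.

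Amino acids cross the plasma membrane on carriers that either exchange one amino acid for another or couple uptake to sodium, chloride or protons. Several light chains of the SLC7 family work only when bound through a disulfide bridge to a heavy chain of the SLC3 family, CD98 (Slc3a2) or rBAT (Slc3a1), which brings them to the membrane. In the mammary gland these carriers are known for supplying milk protein synthesis in lactation and for setting the activity of mTORC1, the kinase complex that couples growth to amino acid supply. Scarcity of amino acids is sensed by the kinase GCN2, which acts through the transcription factor ATF4 on a set of genes that includes several of these carriers.

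Library totals ranged from 13203146 to 17998165 counts, and levels are given as CPM, read counts scaled to the size of the library after correction of the totals by TMM, which assumes most genes are alike between libraries. The labels were checked on lineage markers: 16 of 16 luminal markers (such as Krt8, Elf5 and Prlr) were higher in the luminal libraries and 12 of 12 basal markers (such as Krt5, Acta2 and Trp63) in the basal libraries. Epcam and Itga6 (CD49f), which are among these markers, encode the proteins used for the sort and are no independent check. Basal markers other than Itga6 stood in luminal libraries at 0.143% to 3.57% of their basal level. Luminal markers stood in basal libraries at 0.0835% to 38.1% of their luminal level, highest for Gata3 (38.1%), Krt8 (21.7%), Epcam (19.2%), Esr1 (15.4%) and Krt18 (14.2%). Summed levels of endothelial markers were 4.58 to 10 CPM in luminal and 12.3 to 18.2 CPM in basal libraries, those of immune markers 21.7 to 28.7 and 36.9 to 55.1 CPM with Cd3e at 0, and those of fibroblast markers 28.0 to 118 and 38.9 to 57.5 CPM. Adipocyte markers summed to 1.94 to 3.13 and 4.02 to 8.88 CPM with Adipoq at 0, Schwann cell markers to 362 to 461 and 401 to 435 CPM, and erythroid markers to 4.74 to 18.3 and 0.546 to 2.28 CPM. Of the tested markers, 2 of 5 endothelial ones were higher in basal cells, as were 2 of 4 immune, 2 of 8 fibroblast, 1 of 1 adipocyte and 2 of 5 Schwann cell markers, and 2 immune, 1 fibroblast, 2 Schwann cell and 1 of 2 erythroid markers were higher in luminal cells. The study's sorting protocol also stained TER-119, CD31 and CD45, which mark erythroid, endothelial and immune cells, whereas the labels of these libraries name only EpCAM and CD49f. The part of these cells in the results below was not tested. Same-numbered luminal and basal libraries share a leading number in their description, and nothing else in the labels says that the libraries came from separate animals, so p-values measure the spread between these libraries.

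Most amino-acid transporters that could be tested were higher in basal cells. Of the 63 genes, 33 passed the filter on low counts, and 21 of these (63.6%) were higher in basal and 9 (27.3%) higher in luminal cells at an adjusted p under 0.05 (edgeR's quasi-likelihood test, Benjamini-Hochberg adjustment over all 14609 genes tested). Over all genes tested, 31.2% were higher in basal and 33.6% higher in luminal cells. With a change of at least 2-fold as a further limit, 20 members (60.6%) were higher in basal and 6 (18.2%) in luminal cells, against 19.1% and 20.9% of all genes. The basal libraries lay above every luminal library for 21 members, which 25.3% of all genes did, and the luminal libraries lay above every basal library for 7, which 24.7% of all genes did. The median log2 fold change (luminal minus basal) of the tested members was -2.19 and its median size 2.48, beside 0.05 and 0.81 over all genes tested. A gene that passes the filter only through the group where it is high had to differ. That holds for 7 tested members that reached the filter's limit of 0.651 CPM in all basal libraries but not in all luminal ones, and for 1 with the reverse, Slc7a4. Of the 25 members at that limit in every library of both groups, 14 were higher in basal and 8 higher in luminal cells. How all genes split at that limit was not counted. A similar limit, with each library holding 10 or more counts of a gene, left 12127 genes to test. Of these, 3706 were higher in basal and 4178 higher in luminal cells. Under it 25 members were tested, and 14 were higher in basal and 8 higher in luminal cells.

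**Figure D1:**
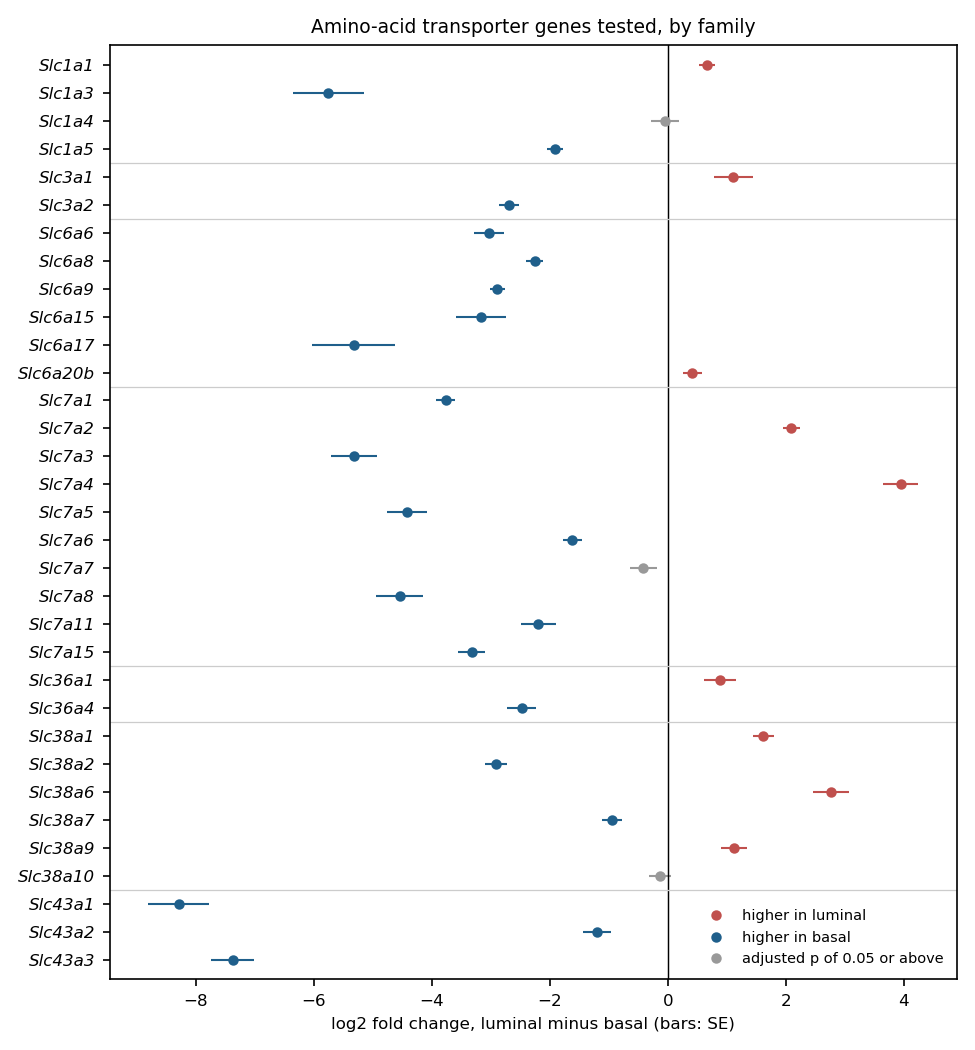
Log2 fold change (luminal minus basal, horizontal axis) with its SE (bars) for the 33 amino-acid transporter genes tested, grouped by family between grey lines. The 21 genes higher in basal cells lie left of 0, from Slc38a7 at -0.95 to Slc43a1 at -8.30, the 9 higher in luminal cells lie right of 0, up to Slc7a4 at 3.95, and 3 grey points near 0 did not pass the test.

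By family, all 3 tested SLC43 genes, 5 of 6 SLC6 genes and 7 of 10 SLC7 genes were higher in basal cells, whereas 3 of 6 tested SLC38 genes were higher in luminal cells and 2 in basal cells. Of the genes higher in basal cells, Slc43a1, Slc43a3, Slc6a15, Slc6a17, Slc7a3, Slc7a8 and, in SLC1, Slc1a3 are the 7 below the filter's limit in some or all luminal libraries, so these tallies are a description. SLC1, SLC3 and SLC36 held genes of both directions. Whether the families differ from each other was not tested.

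Together the members took 0.193% to 0.238% of the counts of a luminal library and 0.664% to 0.802% of those of a basal library. A few genes carried most of that gap. Slc3a2, Slc7a5 and Slc38a2 made up 29.0% to 34.5% of the members' counts in luminal and 63.6% to 68.9% in basal libraries. The other 60 members took 0.134% to 0.163% of luminal and 0.226% to 0.281% of basal counts, so the groups did not overlap without these genes either.

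**Figure D2:**
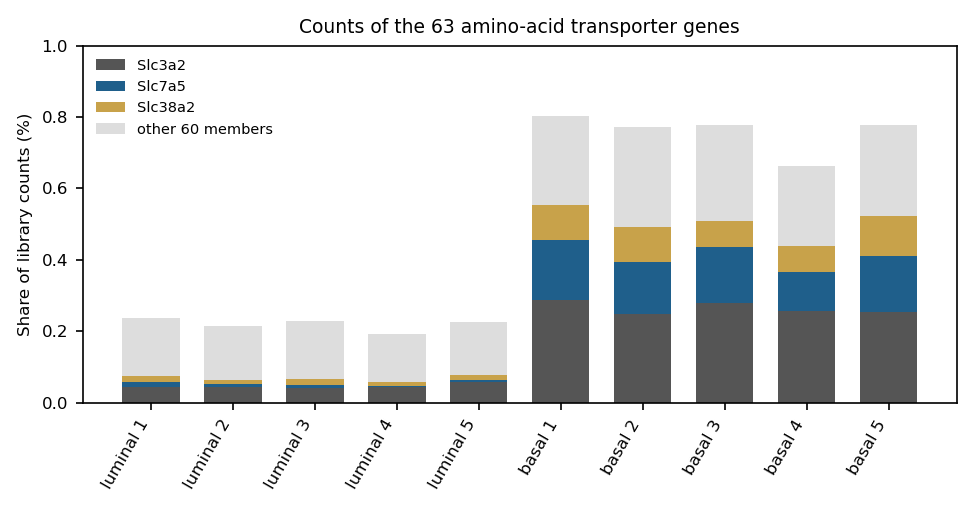
Share of each library's counts (vertical axis, %) taken by the 63 amino-acid transporter genes, with Slc3a2, Slc7a5 and Slc38a2 in colour and the other 60 in light grey, for 5 luminal and 5 basal libraries. The luminal bars reach 0.193% to 0.238% and the basal bars 0.664% to 0.802%.

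The heavy chain Slc3a2 (CD98, Entrez 17254, chr19:8706882-8723369 on GRCm38.p6) was the member with the most counts in the basal libraries. Its level was 429, 411, 351, 450.1 and 548 CPM in luminal replicates 1 to 5 and 3241, 2625, 2964, 2722 and 2642 CPM in basal replicates 1 to 5. Every basal library lay above every luminal one, with basal replicate 1 the highest. Slc3a2 was 6.48-fold higher in basal cells (log2 fold change -2.70, SE 0.17, adjusted p = 7.92e-09 by edgeR). The other heavy chain, Slc3a1 (rBAT), which pairs with carriers of cystine and basic amino acids in kidney and gut, stood at 9.82, 10.5, 8.65, 12.5 and 8.82 CPM in luminal and 6.49, 4.43, 6.81, 1.38 and 4.14 CPM in basal libraries. It was 2.17-fold higher in luminal cells (log2 fold change 1.12, SE 0.33, adjusted p = 0.00931 by edgeR), with no overlap between the groups and basal replicate 4 the lowest. Exons of the neighbouring gene Prepl on the opposite strand cover 26.5% of its exon bases, and how the counting treated strand is not given in the sources used here.

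Among the light chains for neutral amino acids, Slc7a5 (LAT1, Entrez 20539, chr8:121881146-121907686), which imports leucine and other large neutral amino acids, was measured at 129, 79.2, 69.1, 28.3 and 60.7 CPM in luminal and 1876, 1554, 1638, 1152 and 1627 CPM in basal libraries. The lowest library of each group was replicate 4, and the highest was replicate 1. Slc7a5 was 21.4-fold higher in basal cells (log2 fold change -4.42, SE 0.34, adjusted p = 5.24e-08 by edgeR). Slc7a8 (LAT2), a related exchanger of neutral amino acids, was at 1.06, 0.843, 1.17, 0.0764 and 1.52 CPM in luminal libraries, the fourth of these resting on 1 count, and at 17.5, 21.7, 26.8, 28.8 and 16.8 CPM in basal libraries. It was 23.3-fold higher in basal cells (log2 fold change -4.54, SE 0.40, adjusted p = 2.00e-07 by edgeR), and here basal replicate 4 was the highest. Slc7a8 reached the filter's limit in 4 luminal and 5 basal libraries, so it passed only through the basal libraries and had to differ. Slc7a10, another carrier of this kind, had no count in any luminal library and 2, 2, 6, 10 and 5 counts in the basal libraries, so it was not tested. At a floor of 3 counts per library its basal level was at least 1.74-fold higher. Exons of Lrp3 on the opposite strand cover 17.9% of the exon bases of Slc7a10.

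The 2 tested light chains that exchange basic for neutral amino acids had smaller fold changes than Slc7a5 and Slc7a8, a difference that was not tested. Slc7a6 (y+LAT2) was at 9.44, 14.7, 12.1, 8.78 and 11.7 CPM in luminal and 30.7, 37.0, 36.2, 34.3 and 36.02 CPM in basal libraries, 3.07-fold higher in basal cells (log2 fold change -1.62, SE 0.16, adjusted p = 9.50e-07 by edgeR). Slc7a7 (y+LAT1) was at 16.4, 20.01, 13.1, 7.94 and 10.8 CPM in luminal and 20.02, 15.01, 19.1, 15.8 and 21.2 CPM in basal libraries. These groups overlapped, and the log2 fold change of -0.41 (SE 0.23) did not pass the test (adjusted p = 0.129 by edgeR). Without luminal replicate 2, the highest luminal library, it was -0.58 with an adjusted p of 0.0352.

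Slc7a15 (chr12:8528481-8599066), a mouse light chain that prefers aromatic amino acids, was at 17.9, 13.4, 17.3, 11.1 and 19.8 CPM in luminal and 228, 145, 159.9, 93.9 and 172 CPM in basal libraries. The lowest library was again replicate 4 in both groups. It was 10.03-fold higher in basal cells (log2 fold change -3.33, SE 0.24, adjusted p = 2.31e-08 by edgeR).

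Slc7a11 (xCT, Entrez 26570, chr3:50364936-50499087), which takes up cystine in exchange for glutamate and feeds glutathione synthesis, was at 9.26, 6.00, 10.4, 9.39 and 18.6 CPM in luminal and 29.5, 44.3, 56.8, 74.1 and 40.7 CPM in basal libraries. Luminal replicate 5 and basal replicate 4 stood highest, and the groups did not overlap. Slc7a11 was 4.58-fold higher in basal cells (log2 fold change -2.19, SE 0.30, adjusted p = 1.67e-05 by edgeR). The gene is a textbook target of the amino acid response, and its promoter is shown because it is the only promoter of a member higher in basal cells, among those with a RefSeq window, that held the core of the element bound by C/EBP and ATF factors, TGATGNAA. The motif was searched on both strands from 250 bases before to 50 bases after each start site in RefSeq promoter windows of GRCm38.p6, and the capitals mark its 2 matches, which lie on opposite strands at 66 and 47 bases before the start site and do not overlap each other. The 250 bases before the start site (chr3:50443614-50443863, minus strand, 5′ to 3′) read as follows.
Slc7a11: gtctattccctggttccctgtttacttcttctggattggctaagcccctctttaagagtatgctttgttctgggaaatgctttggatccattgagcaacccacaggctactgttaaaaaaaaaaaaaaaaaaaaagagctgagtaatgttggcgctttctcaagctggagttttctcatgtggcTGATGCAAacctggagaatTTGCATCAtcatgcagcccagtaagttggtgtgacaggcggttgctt

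Windows were given for 45 of the 63 members, and 4 of these (8.89%) held the motif, against 4.51% of the genes of the whole promoter table. Among the tested members with a window 3 of 23 (13%) held it, against 2.85% of the genes tested that had a window. Of the members higher in basal cells 1 of 14 held it, and of those higher in luminal cells 0 of 6. Beside Slc7a11 the members with the motif were Slc6a21, Slc7a7 and Slc1a4. None of those 3 was called between the cell types (Slc6a21 was not tested). Their matches within 30 bases, on the strand of the gene and with the motif in capitals, are given for the tested genes to set beside the Slc7a11 promoter, for Slc1a4 at chr11:20332699-20332728 and for Slc7a7 at chr14:54417927-54417956 (first site) and chr14:54418067-54418096 (second site).
Slc1a4: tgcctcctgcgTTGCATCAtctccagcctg
Slc7a7, first site: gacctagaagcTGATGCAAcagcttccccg
Slc7a7, second site: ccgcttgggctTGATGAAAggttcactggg
A match is a string of letters and not evidence of binding. Slc1a5, Slc6a2, Slc6a6, Slc6a7, Slc6a8, Slc6a15, Slc6a18, Slc7a2, Slc7a3, Slc7a4, Slc7a5, Slc7a12, Slc7a13, Slc36a2, Slc38a1, Slc38a3 and Slc43a3 were among the members with no window in the table.

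Heavy and light chains were then set side by side per length, as CPM per kilobase of the longest annotated transcript. Slc3a2 lay at 125 to 195 CPM per kb in luminal and 933 to 1152 CPM per kb in basal libraries. The sum of its light chains (Slc7a5, Slc7a6, Slc7a7, Slc7a8, Slc7a10 and Slc7a11) lay at 14.9 to 47.6 CPM per kb in luminal and 359 to 558 CPM per kb in basal libraries. The heavy chain exceeded the light chain sum in all 10 libraries, by 3.20 to 10.7 times in luminal and 1.92 to 2.70 times in basal libraries, and luminal replicate 4 gave the highest ratio. Slc7a5 made up 54.0% to 77.0% of the light chain sum in luminal and 91.2% to 95.6% in basal libraries. With Slc7a15 added as a seventh light chain, after the data were seen, the sum was 20.8 to 57.0 CPM per kb in luminal and 408 to 678 CPM per kb in basal libraries. Slc7a5 then made up 38.8% to 64.3% and 78.7% to 81.2% of the sum, and Slc3a2 exceeded it by 2.67 to 7.71 times and 1.62 to 2.37 times. In the sum of 6, Slc7a7 made up 15.1% to 24.4% of it in luminal and 1.41% to 1.93% in basal libraries, although its own level did not pass the test, because shares of a sum depend on one another. These ratios are of transcripts, and CD98 also binds integrins, so they are no count of assembled carriers.

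**Figure D3:**
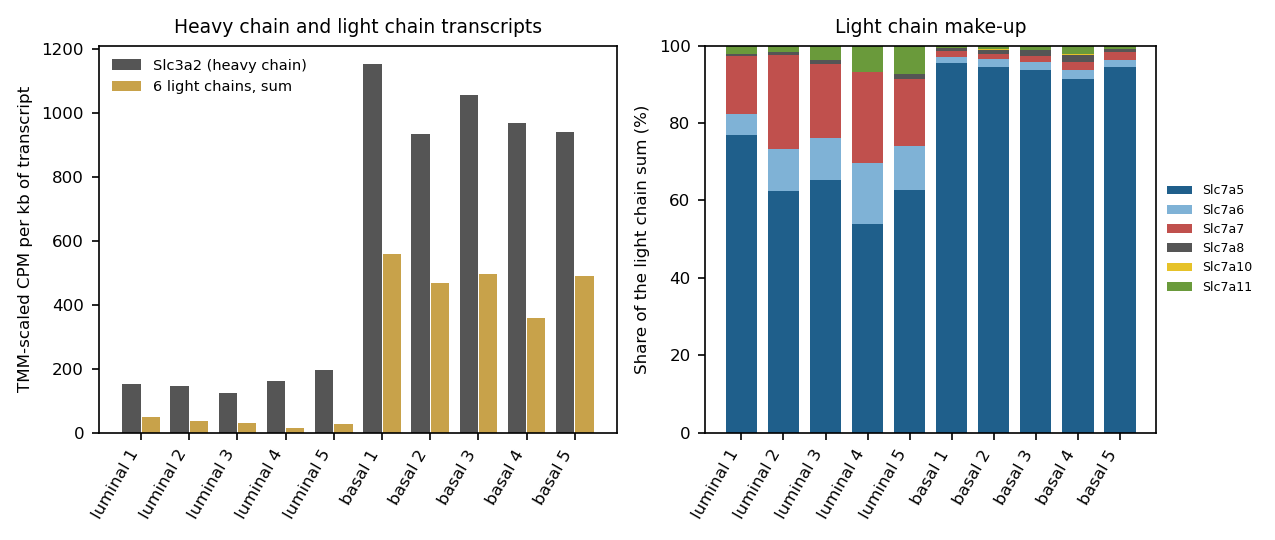
Left, TMM-scaled CPM per kilobase of transcript of the heavy chain Slc3a2 and of the sum of 6 light chains in each library. Right, share of each light chain in that sum (%). Slc3a2 exceeds the light chain sum in all 10 libraries, and Slc7a5 makes up 54.0% to 77.0% of the sum in luminal and 91.2% to 95.6% in basal libraries. Slc7a15 is not in the sum.

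The cationic amino acid transporters, which take up arginine, lysine and ornithine without a heavy chain, split between the cell types. Slc7a1 (CAT1, Entrez 11987, chr5:148327410-148399904) was at 24.3, 27.0, 24.8, 24.6 and 36.2 CPM in luminal and 419, 367, 366, 303 and 409.9 CPM in basal libraries, 13.6-fold higher in basal cells (log2 fold change -3.77, SE 0.17, adjusted p = 3.18e-10 by edgeR). Slc7a3 (CAT3) was at 1.25, 1.26, 1.96, 0.611 and 0.127 CPM in luminal and 49.5, 38.1, 46.7, 43.2 and 35.6 CPM in basal libraries, 40.0-fold higher in basal cells (log2 fold change -5.32, SE 0.38, adjusted p = 2.80e-08 by edgeR). Slc7a2 (CAT2, Entrez 11988, chr8:40862341-40922070) went the other way, with 562, 523, 541, 648 and 489 CPM in luminal and 147, 120.1, 132, 107 and 141 CPM in basal libraries. It was the member with the most counts in each luminal library other than replicate 5, in which Slc3a2 had more, and was 4.27-fold higher in luminal cells (log2 fold change 2.09, SE 0.15, adjusted p = 1.89e-08 by edgeR). Slc7a4, a relative of these carriers whose substrate is not settled, was at 17.1, 16.9, 14.3, 14.3 and 13.6 CPM in luminal and 0.686, 0.955, 0.851, 0.563 and 1.80 CPM in basal libraries. It was 15.5-fold higher in luminal cells (log2 fold change 3.95, SE 0.30, adjusted p = 4.41e-08 by edgeR), and exons of P2rx6 on the opposite strand cover 13.3% of its exon bases. Slc7a4 reached the filter's limit in 5 luminal and 3 basal libraries, and Slc7a3 in 3 luminal and 5 basal libraries. Each of these 2 genes passed only through the group where it is high and so had to differ. Per length, the sum of the 5 carriers of this kind was 71.0 to 89.9 CPM per kb in luminal and 71.6 to 95.2 CPM per kb in basal libraries, so the sums overlapped while their make-up did not. Slc7a2 gave 87.0% to 91.1% of the sum in luminal and 18.9% to 20.1% in basal libraries, and Slc7a1 gave 3.81% to 7.10% and 58.9% to 64.6%. The fifth, Slc7a14, had 4 counts in 1 basal library and none in the others.

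All 3 SLC43 genes were higher in basal cells, and 2 of them, Slc43a1 and Slc43a3, passed the filter only through the basal libraries and so had to differ. Slc43a1 (LAT3, Entrez 72401, chr2:84838855-84863586), which carries branched-chain amino acids and phenylalanine by facilitated diffusion, had 2, 0, 6, 0 and 0 counts in the luminal libraries and 46.3, 38.7, 30.5, 21.8 and 32.0 CPM in the basal libraries. The difference passed the test (edgeR, adjusted p = 6.18e-09) at a log2 fold change of -8.30 (SE 0.51), a size that rests on 8 luminal counts in all and was -9.77 without luminal replicate 3, which held 6 of them. Slc43a3 (Entrez 58207, chr2:84936545-84958509), a relative that is known to carry purine nucleobases rather than amino acids, was at 0.563, 1.69, 1.84, 0.153 and 1.08 CPM in luminal and 206, 203, 175, 187 and 151 CPM in basal libraries. Here the log2 fold change came to -7.38 (SE 0.37, edgeR adjusted p = 8.05e-10). The luminal mean was 0.291% of the basal mean for Slc43a1 and 0.577% for Slc43a3. These values lie within the range of basal markers in the luminal libraries, such as Krt5 at 0.572% and Acta2 at 0.223%. Slc1a3 (1.93%), Slc6a17 (2.32%) and Slc7a3 (2.45%) lay within that range too. Slc43a1 and Slc43a3 both lie on chromosome 2 with 72958 bases between them. Slc43a2 (LAT4), which shares the substrates of LAT3, lies on another chromosome (chr11:75529915-75577575). It was at 25.2, 13.3, 20.6, 10.99 and 24.7 CPM in luminal and 43.1, 39.1, 50.4, 32.9 and 52.2 CPM in basal libraries, 2.296-fold higher in basal cells (log2 fold change -1.20, SE 0.23, adjusted p = 4.05e-04 by edgeR), again with replicate 4 lowest in both groups.

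**Figure D4:**
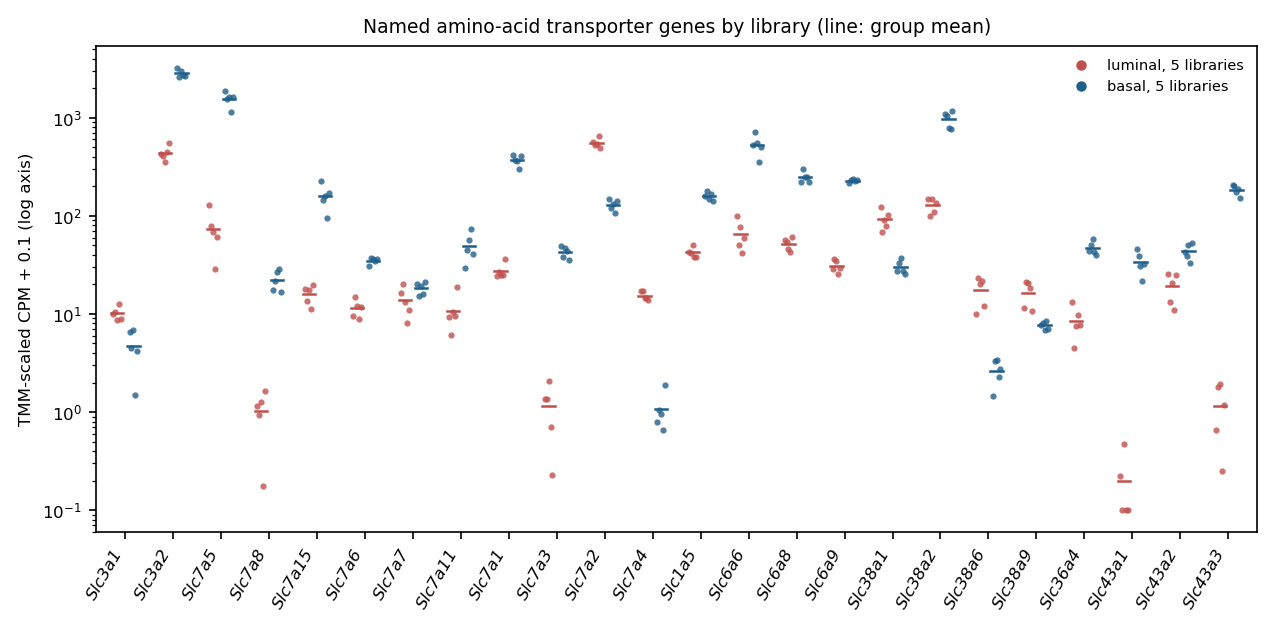
TMM-scaled CPM + 0.1 (vertical log axis) of 24 amino-acid transporter genes in each of 5 luminal and 5 basal libraries, with points for libraries and short lines for group means. Slc3a2, Slc7a5 and Slc38a2 lie highest in basal libraries, Slc7a2 lies above its basal level in all luminal libraries, and Slc43a1 and Slc43a3 are near the bottom of the scale in luminal libraries only.

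Of the carriers of SLC1, Slc1a5 (ASCT2), an exchanger of glutamine and other neutral amino acids, was at 42.96, 41.4, 50.9, 38.3 and 38.4 CPM in luminal and 158, 181, 149.6, 167 and 141 CPM in basal libraries. It was 3.76-fold higher in basal cells (log2 fold change -1.91, SE 0.13, adjusted p = 1.66e-08 by edgeR). Its close relative Slc1a4 (ASCT1) overlapped between the groups, at 17.03 to 49.8 CPM in luminal and 25.3 to 38.7 CPM in basal libraries, and its log2 fold change of -0.04 (SE 0.23, adjusted p = 0.879 by edgeR) changed sign when library totals replaced TMM (0.15). The glutamate carrier Slc1a1 (EAAT3) was at 151 to 220.5 CPM in luminal and 106 to 127 CPM in basal libraries, 1.59-fold higher in luminal cells (log2 fold change 0.67, adjusted p = 5.31e-04 by edgeR), and 31.9% of its exon bases are covered by an opposite-strand gene, 4430402I18Rik. The glutamate carrier Slc1a3 (GLAST), known from astrocytes, was at 7.48 to 11.7 CPM in basal libraries and had 0, 0, 1, 7 and 5 counts in luminal ones (log2 fold change -5.76, adjusted p = 1.31e-06 by edgeR), a change of -6.60 without luminal replicate 4 and -6.43 with limma voom. Slc1a3 passed the filter only through the basal libraries and so had to differ.

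The sodium-coupled carriers of SLC38 differed in both directions, and 2 neighbouring genes were opposite to each other. Slc38a2 (SNAT2, Entrez 67760, chr15:96687392-96699728), a system A carrier that accumulates small neutral amino acids and is induced when they are scarce, was at 148, 101, 149, 109.9 and 135 CPM in luminal and 1084, 1036, 785, 768 and 1178 CPM in basal libraries. It was 7.55-fold higher in basal cells (log2 fold change -2.92, SE 0.19, adjusted p = 9.19e-09 by edgeR). Slc38a1 (SNAT1, Entrez 105727, chr15:96571418-96643438), the other system A carrier expressed here, lies 43953 bases away on the same chromosome and was at 123, 68.4, 89.7, 78.3 and 101 CPM in luminal and 27.2, 32.6, 37.2, 27.1 and 25.6 CPM in basal libraries. It was 3.08-fold higher in luminal cells (log2 fold change 1.62, SE 0.18, adjusted p = 1.80e-06 by edgeR), so both neighbours separated the cell types fully and in opposite directions.

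Among the remaining SLC38 genes, Slc38a6, a member whose transport is little known, was at 9.94, 22.9, 19.997, 21.5 and 12.0 CPM in luminal and 1.37, 3.21, 3.33, 2.19 and 2.64 CPM in basal libraries, 6.79-fold higher in luminal cells (log2 fold change 2.76, SE 0.31, adjusted p = 2.38e-06 by edgeR). Of the 50-base stretches of its longest transcript, 21.0% occur also in the gene D10Wsu102e, so reads may have been shared. Slc38a9, the arginine sensor of the lysosomal membrane that signals to mTORC1, was at 11.5, 20.9, 20.7, 18.5 and 10.5 CPM in luminal and 7.67, 7.98, 6.73, 8.32 and 6.95 CPM in basal libraries. It was 2.18-fold higher in luminal cells (log2 fold change 1.12, SE 0.22, adjusted p = 5.30e-04 by edgeR). Luminal replicates 1 and 5 were the lowest luminal libraries for both of these genes. Slc38a7, a glutamine carrier, was 1.93-fold higher in basal cells (13.5 ± 2.74 CPM in luminal and 26.1 ± 2.29 CPM in basal libraries, SD, n = 5 each, adjusted p = 2.18e-04 by edgeR). Slc38a10 overlapped between the groups (135 ± 33.7 and 147 ± 24.5 CPM, SD, n = 5 each, adjusted p = 0.560 by edgeR).

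The sodium- and chloride-coupled SLC6 family is known mainly for neurotransmitter uptake, and its 3 members with the highest levels in basal cells carry taurine, creatine and glycine. Slc6a6 (taurine, Entrez 21366, chr6:91684048-91759063) was at 98.4, 50.6, 76.3, 41.3 and 58.8 CPM in luminal and 528, 718, 553, 355 and 499 CPM in basal libraries, 8.15-fold higher in basal cells (log2 fold change -3.03, SE 0.25, adjusted p = 1.25e-07 by edgeR). Slc6a8 (creatine) was at 56.0, 53.5, 46.3, 42.5 and 60.3 CPM in luminal and 222, 297, 247, 247 and 222 CPM in basal libraries, 4.78-fold higher in basal cells (log2 fold change -2.26, SE 0.14, adjusted p = 8.54e-09 by edgeR). Slc6a9 (GLYT1, glycine) was at 28.5, 35.9, 34.5, 25.7 and 29.1 CPM in luminal and 215, 232, 236, 224 and 230.2 CPM in basal libraries. It was 7.40-fold higher in basal cells (log2 fold change -2.89, SE 0.13, adjusted p = 4.03e-10 by edgeR), and its basal libraries had the smallest relative spread of any tested member (coefficient of variation 3.52%). Ccdc24 on the opposite strand covers 27.8% of the exon bases of Slc6a9.

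At lower levels in basal cells, the neutral amino acid carrier Slc6a15 was at 5.18 to 12.0 CPM in basal and 0.313 to 1.74 CPM in luminal libraries (log2 fold change -3.17, adjusted p = 1.22e-05 by edgeR), and the vesicular carrier Slc6a17 was at 3.75 to 7.37 CPM in basal libraries with 3, 0, 7, 0 and 0 counts in luminal ones (log2 fold change -5.33, adjusted p = 1.24e-05 by edgeR). The change of Slc6a17 was -6.61 without luminal replicate 3 and -6.01 with limma voom. Both Slc6a15 and Slc6a17 passed the filter only through the basal libraries and so had to differ. Slc6a20b, of the proline carriers, overlapped between the groups (33.4 ± 7.07 CPM in luminal and 25.0 ± 2.73 CPM in basal libraries, SD, n = 5 each). Its log2 fold change of 0.42 (SE 0.16, adjusted p = 0.0359 by edgeR) lost the call in 10 of 18 alternatives, among them the fit with the replicate number as a block (adjusted p = 0.0732). Its neighbour and near copy Slc6a20a was not tested, with 29, 34, 11, 8 and 19 counts in luminal and 0, 2, 0, 0 and 0 counts in basal libraries, at least 6.15-fold higher in luminal cells at a floor of 3 counts per library. Of the 50-base stretches of Slc6a20a, 16.2% occur in Slc6a20b, and exons of Sacm1l on the opposite strand cover 21.1% of the exon bases of Slc6a20b. Those of Gm17120, also on the opposite strand, cover 13.8% of the exon bases of Slc6a20a.

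In the proton-coupled SLC36 family, Slc36a4, a high-affinity carrier of proline and tryptophan, was at 13.1, 4.42, 7.36, 9.70 and 7.68 CPM in luminal and 43.3, 50.1, 58.6, 42.7 and 40.2 CPM in basal libraries. It was 5.56-fold higher in basal cells (log2 fold change -2.48, SE 0.24, adjusted p = 6.80e-07 by edgeR). Slc36a1, the lysosomal and apical relative, was 1.85-fold higher in luminal cells (14.7 ± 5.53 CPM in luminal and 7.96 ± 2.16 CPM in basal libraries, SD, n = 5 each, adjusted p = 0.00997 by edgeR), although 1 luminal library at 9.45 CPM lay below the highest basal library at 10.4 CPM.

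The 30 members not tested had a mean of at most 1.22 CPM in luminal and 0.929 CPM in basal libraries. They include all 3 monoamine carriers (Slc6a2, Slc6a3 and Slc6a4), the GABA carriers Slc6a11 and Slc6a13, the kidney and gut carriers Slc6a18, Slc6a19 and Slc7a9, and the system N carriers Slc38a3 and Slc38a5, which move glutamine in liver and brain. In 12 of them no library had more than 3 counts, and Slc6a18 had none in any library, which at 3 counts allows up to 0.158 to 0.232 CPM per library. These limits cover counting error only. Slc6a2 (noradrenaline) had 1 count in all luminal libraries together and 2 to 32 counts in each basal library, and Slc1a7 had 2 counts and 4 to 18. Slc6a3 (dopamine) and Slc1a6 each had 4 counts over the luminal libraries, with 2 to 11 and 2 to 12 in the basal ones, and their groups overlapped. Slc36a2 had 14, 4, 1, 9 and 1 counts in the luminal libraries and 4 counts over the basal libraries, 3 of them in replicate 2, and its groups overlapped too. Slc6a4 (serotonin) had 39 counts in basal replicate 4 and at most 5 in each of the other libraries, and Slc6a21 had 9 counts in luminal replicate 3 and none elsewhere.

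Levels of different members were compared per length. In basal cells the order of the means was led by Slc3a2 (1009 ± 93.3 CPM per kb, SD, n = 5), Slc7a5 (446 ± 74.7), Slc38a2 (159 ± 30.1), Slc6a6 (85.8 ± 21.0), Slc7a15 (83.8 ± 25.4) and Slc43a3 (70.3 ± 8.62). The first 3 were separated by more than their SDs, and Slc6a6, Slc7a15 and Slc43a3 were not separated from each other. In luminal cells it was led by Slc3a2 (156 ± 25.5 CPM per kb), Slc7a2 (69.8 ± 7.56), Slc1a1 (48.9 ± 7.55), Slc38a10 (29.4 ± 7.36), Slc38a2 (21.0 ± 3.63) and Slc7a5 (20.8 ± 10.4), of which Slc38a10, Slc38a2 and Slc7a5 were not separated from each other. Slc7a2 was the second of 63 in luminal and the 13th in basal cells, and Slc43a3 was the sixth in basal and the 27th in luminal cells.

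The members also differed in which library was high. The coefficient of variation of the tested members had a median of 30.6% over luminal and 16.2% over basal libraries. Luminal replicate 4, the library with the lowest total, was the lowest luminal library for 14 of 33 tested members and the highest for 3, and basal replicate 4 was the lowest basal library for 11 and the highest for 4. Without luminal replicate 4 the counts were 21 members higher in basal and 10 higher in luminal cells of 35 tested, and without basal replicate 4 they were 21 and 10 of 34.

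Genes of the amino acid response, the programme of GCN2 and ATF4, were mostly higher in basal cells as well. The list holds Eif2ak4, which encodes GCN2, and Atf4 beside genes downstream of them. Of 25 genes, all tested, 22 were higher in basal and 2 higher in luminal cells, where 31.2% and 33.6% of all genes were called, and the median log2 fold change was -1.79 beside 0.05 over all genes tested. Mthfd2, a mitochondrial enzyme of one-carbon metabolism, was at 15.6 to 24.6 CPM in luminal and 228 to 325 CPM in basal libraries (log2 fold change -3.93, SE 0.17, adjusted p = 3.24e-10 by edgeR). Chac1, which breaks down glutathione, was at 2.21 to 6.13 and 53.1 to 84.2 CPM (-3.85, SE 0.26), and Ppp1r15a, a phosphatase subunit that ends the response, at 70.9 to 107 and 676 to 1062 CPM (-3.30, SE 0.18). Fgf21, a secreted factor, had 3 counts in 1 luminal library and none in the others, and 7.73 to 19.4 CPM in basal libraries, which makes basal cells at least 66.9-fold higher at 3 counts per library. Asparagine synthetase (Asns) was at 34.9 to 54.1 CPM in luminal and 269 to 456 CPM in basal libraries (-2.94), and Atf4 itself at 341 to 606 and 872 to 1296 CPM (-1.04), both chosen after their values were seen. Nupr1, a stress-induced chromatin protein, was higher in luminal cells (222 to 575 CPM against 35.2 to 47.4 CPM, log2 fold change 3.19, SE 0.23). The other gene called higher in luminal cells was Phgdh, the first enzyme of serine synthesis (0.52, adjusted p = 0.0480 by edgeR), whose groups overlapped. Phgdh lost this call with RLE factors, without a filter, with the replicate block and without any of luminal replicates 1, 3 and 5 and basal replicates 1, 2, 3 and 5, which left 1 gene higher in luminal cells. The promoter motif TGATGNAA was found in 8 of these 25 genes (32.0%).

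**Figure D5:**
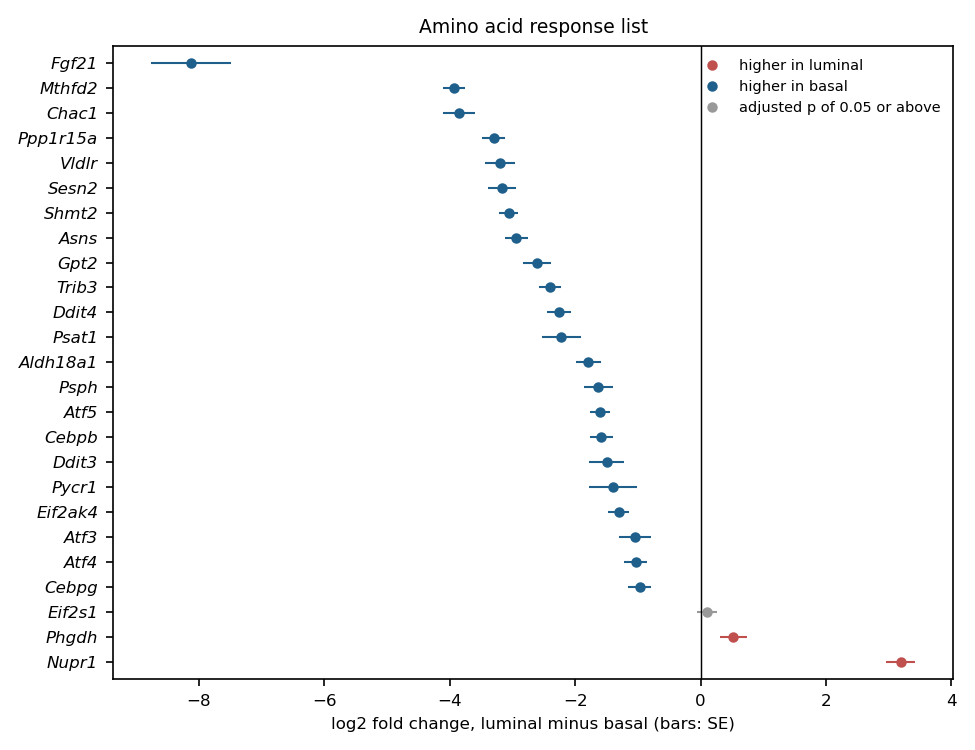
Log2 fold change (luminal minus basal, horizontal axis) with its SE (bars) of 25 genes of the amino acid response. There are 22 genes left of 0, higher in basal cells, from Cebpg at -0.97 to Fgf21 at -8.13 (a fitted value that rests on 3 luminal counts), 1 that did not pass the test and 2, Phgdh and Nupr1, to the right of 0.

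The dissociation of tissue induces immediate early genes, and a list of 12 such genes moved in part with these results. Atf3 is in this list and in the preceding one. Of the 12, 10 were higher in basal cells and 2, the heat shock genes Hspa1a and Hspa1b, in luminal cells. Over all genes tested, 31.2% were higher in basal and 33.6% higher in luminal cells. The summed level of the 12 was 4793 to 6774 CPM in luminal and 4970 to 10290 CPM in basal libraries, and the sums overlapped. Without the heat shock genes, a sum chosen after the data were seen, the other 10 genes summed to 2204 to 3074 CPM in luminal and 4077 to 7526 CPM in basal libraries, with no overlap. For 6 of these 10 genes the basal libraries lay above every luminal library, which 25.3% of all genes did. Basal replicate 1 had the highest sum of this list, the highest sum of the amino acid response list (12100 CPM against 8815 to 9540 CPM in the other basal libraries) and the highest Slc3a2 and Slc7a5. Without basal replicate 1 there were 21 members higher in basal and 9 higher in luminal cells, and 22 genes of the amino acid response higher in basal cells. The part of dissociation in these results was not tested.

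Genes that sense amino acids at the lysosome and pass the signal to mTORC1 were called in both directions. Of 30, all tested, 9 were higher in luminal cells, 9 in basal cells and 12 did not pass the test (median log2 fold change -0.11), where 33.6% and 31.2% of all genes were called. The split was 8 and 11 with RLE factors, 11 and 7 with library totals, and 6 and 11 without basal replicate 1. Sesn2, the leucine sensor that ATF4 also induces, was at 23.3 to 40.2 CPM in luminal and 193 to 374 CPM in basal libraries (log2 fold change -3.16, SE 0.22). Of the 5 subunits of the Ragulator complex, which anchors the sensing machinery, 4 were higher in luminal cells. Lamtor3 was higher in basal cells (-0.46, SE 0.15, adjusted p = 0.0155 by edgeR), although its groups overlapped. The largest of these changes were of Lamtor2, at 46.2 to 99.6 and 13.1 to 20.6 CPM (2.08, SE 0.21), and of Lamtor4, at 28.4 to 58.0 and 7.61 to 15.5 CPM (1.95, SE 0.24). The complex that inhibits the Rag proteins was called in both directions. Nprl3 was higher in luminal cells (1.51, SE 0.16) and Depdc5 in basal cells (-1.13, SE 0.26). Nprl2 was called higher in luminal cells (0.51, adjusted p = 0.0346 by edgeR), although its groups overlapped.

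Among 34 enzymes of amino acid metabolism, 29 were tested, with 15 higher in luminal cells and 9 in basal cells (median log2 fold change 0.51), where 33.6% and 31.2% of all genes were called. Gpt2 is also in the list of the amino acid response. Cdo1 (cysteine dioxygenase) was at 207 to 449.8 CPM in luminal and 0.542 to 1.57 CPM in basal libraries (log2 fold change 7.97, SE 0.32). Ido1, which degrades tryptophan, was at 75.3 to 184 CPM in luminal libraries and had 1 count in all basal libraries together, at least 696-fold higher in luminal cells at 3 counts per library. Bcat1, which transaminates branched-chain amino acids, was higher in basal cells, at 60.5 to 98.3 CPM against 0.125 to 0.825 CPM (-7.37, SE 0.35).

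Other amino acid carriers, outside the families of the members, were called in both directions. Of 22, 17 were tested, with 4 higher in luminal cells and 5 in basal cells, and 8 did not pass the test (median log2 fold change 0.06), where 33.6% and 31.2% of all genes were called. With upper-quartile factors or library totals the split was 6 and 4, and the difference from the members was not tested. The peptide carriers Slc15a2 (log2 fold change 2.04, SE 0.56) and Slc15a3 (-1.85, SE 0.15), the lysosomal cysteine carrier Mfsd12 (1.55, SE 0.19) and the mitochondrial glutamate carrier Slc25a22 (-1.02, SE 0.16) had the largest changes at a mean of at least 10 CPM. Slc15a2 varied most among them, from 19.8 to 126 CPM over luminal and 5.81 to 31.1 CPM over basal libraries, and its groups overlapped.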

How the data were processed

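RNA was measured in 10 libraries of sorted mouse mammary cells. The authors deposited raw counts per gene with no normalization. Per the labels, NEBNext Ultra II libraries were used, whereas the study's RNA-sequencing methods name the NEBNext Ultra RNA kit or a low-input kit. Reads were trimmed with cutadapt 4.2 and aligned to mm10 with Bowtie2 2.3.5.1 (versions from the submitters' processing notes). Bowtie2 does not align across splice junctions, which can lower counts of genes with many short exons. The counting tool and its treatment of strand and shared reads are not given in the sources used here. The study's methods mention a smaller number of replicates than the 5 here, so it was assumed that its other steps hold.

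Of 24594 Entrez identifiers, 24570 were matched to symbols in a RefSeq table of GRCm38.p6 (the assembly of mm10), which gave coordinates and promoter windows. Transcript lengths were those of the longest GENCODE M21 transcript. Groups follow the cell type label and replicate numbers the titles. Genes were filtered with filterByExpr (minimum count 10, total 15), leaving 14609, scaled with TMM and compared with edgeR 4.0.16 (R 4.3.3) by the quasi-likelihood test, without covariates beside cell type and with Benjamini-Hochberg adjustment over all genes tested. Each SE was derived as the absolute log2 fold change over the root of F. Library totals of 13203146 to 17998165 counts set the depth, at which 3 counts equal 0.158 to 0.232 CPM. No replicates agreed within sampling noise (lowest chi-square per degree of freedom 14.4). Tested on simulated data from these library sizes and gene means for the luminal against basal comparison over 14609 genes, edgeR recovered 72.1% of 86 genes changed 2-fold and 93.9% of 114 changed 4-fold, with 10 false calls.

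Per-library values were given for members with an adjusted p under 0.05, a change of at least 2-fold and, in the higher group, 10 CPM or more on average, and for Slc3a2, Slc7a5, Slc7a6, Slc7a7, Slc7a8, Slc7a11, Slc1a5, Slc38a2 and Slc38a9. Of each related list, the 4 genes with the largest change under an adjusted p of 0.05 and at a mean of at least 10 CPM were named. A few genes that these rules or lists hold are not reported here. The members and lists were chosen with earlier results of these data known. Alternatives were RLE (the size factors of DESeq2), upper-quartile factors, library totals only, no filter, at least 10 counts in every library, DESeq2 1.42.0, limma voom 3.58.1, the replicate number as a block and leaving out each library.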

Additional observations from a re-analysis of the deposited data

Results flagged for a closer look

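In 66 groups of 5 libraries (33 tested members in luminal and in basal cells), the gap between the most extreme library and its nearest neighbour was set against the range of the group. This singled out 1 value, Slc7a1 in luminal replicate 5, at 36.2 CPM where the other luminal libraries had 24.3 to 27.0 CPM. Chance gives about 1 in 20 such values, or 3.3 of 66. The value lies far below the lowest basal library.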

How the results depend on the processing

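The counts of members higher in basal and in luminal cells stayed within 1.5 times under each of the 18 alternatives (14 to 27 and 8 to 10), the ends of the first range arising from 25 members tested at 10 counts in every library and 61 without a filter. Members higher in basal cells by at least 2-fold were 13 with at least 10 counts in every library, since 25 members were then tested. Of the amino acid response, 1 gene was higher in luminal cells with RLE factors, without a filter and with the replicate block, and 1 to 2 when 1 library was left out, Phgdh losing the call. Of 586 single-member values, 569 kept direction and call. Slc6a20b lost its call in 10 and Slc7a7 gained one in 1. Slc1a4 changed sign with upper-quartile factors (0.071) and library totals (0.15) and ranged from -0.27 to 0.11 with 1 library left out, without luminal replicate 4 at 0.11 and without basal replicate 5 at 0.03. Slc38a10 changed sign with library totals (0.066) and ranged from -0.23 to 0.0036. Neither was called in any alternative, and the cause was not tested. Upper-quartile factors moved the median of all genes by 0.12 and library totals by 0.19 on the log2 scale. Same-numbered libraries correlated at -0.13, 0.11, -0.07, 0.25 and 0.06 in their deviations from the group means (mean 0.04, against -0.01 for different numbers). Libraries of different numbers correlated at -0.24 to 0.22. With so wide a range, these values cannot decide whether same-numbered libraries came from the same animal. The main fit used no block because none is stated, so it ignores any such pairing. With the replicate block, 21 members were higher in basal and 8 in luminal cells. Depth limits the 30 members not tested and the size of changes against few counts (Slc43a1, Slc1a3, Slc6a17).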
